A study of Mus musculus with 5 samples.

Results

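Nos2, Gch1, Acod1, Ido1 and Wars encode metabolic enzymes that interferon or other inflammatory signals are known to induce. They were taken by symbol from the deposited gene table, which held all 5 among its 31053 genes. The study profiled single cells of mouse hearts to describe immune checkpoint inhibitor myocarditis, a heart inflammation seen with drugs that release T cells from CTLA-4 and PD-1. The control group was Ctla4+/+Pdcd1-/- (4 mice, 2 libraries, replicates 1 and 2), and the disease group was Ctla4+/-Pdcd1-/- (10 mice, 3 libraries, replicates 3, 4 and 5). Both groups therefore lacked Pdcd1, and they differed by 1 copy of Ctla4. The design text gives Pdcd1 for both groups, while the genotype labels of replicates 2 and 4 read Pdcd2 and that of replicate 5 reads Pdcd3, and the sort dye in the labels is likewise numbered upwards from DRAQ5 along the samples. Hearts were pooled, digested and sorted for cells positive for the DNA dye DRAQ5 and negative for DAPI. The labels do not say which mice went into which library or how old they were, so the replicates are libraries, and p-values measure only the spread between libraries, which may be technical.

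Nitric oxide synthase 2 (Nos2) makes nitric oxide from arginine and needs tetrahydrobiopterin, whose synthesis GTP cyclohydrolase 1 (Gch1) starts. Aconitate decarboxylase 1 (Acod1) makes itaconate from a citrate cycle intermediate in activated myeloid cells. Indoleamine dioxygenase 1 (Ido1) breaks tryptophan down towards kynurenine, and Wars, the cytosolic tryptophanyl-tRNA synthetase, loads tRNA with tryptophan and is a classical interferon gamma target.

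In GRCm38 with the GENCODE M21 annotation, Nos2 spans chromosome 11 at 78920787 to 78960254 and Acod1 spans chromosome 14 at 103046977 to 103056573, both on the plus strand. Ido1 spans chromosome 8 at 24584136 to 24597009, Wars chromosome 12 at 108860030 to 108894174 and Gch1 chromosome 14 at 47153895 to 47189413, all on the minus strand. The 250 bases before the RefSeq gene start are shown for Acod1 and Gch1, the 2 of 5 genes matched in the RefSeq promoter table (GRCm38.p6), because their levels had different patterns across the libraries. They cover chr14:103046762-103047011 on the plus strand and chr14:47189414-47189663 on the minus strand and read 5′ to 3′ along the gene.
Acod1: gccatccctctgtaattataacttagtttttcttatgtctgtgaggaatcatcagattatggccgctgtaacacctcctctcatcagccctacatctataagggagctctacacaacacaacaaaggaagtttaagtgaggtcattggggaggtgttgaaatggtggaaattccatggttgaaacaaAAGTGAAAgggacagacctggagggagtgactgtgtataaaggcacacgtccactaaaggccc
Gch1: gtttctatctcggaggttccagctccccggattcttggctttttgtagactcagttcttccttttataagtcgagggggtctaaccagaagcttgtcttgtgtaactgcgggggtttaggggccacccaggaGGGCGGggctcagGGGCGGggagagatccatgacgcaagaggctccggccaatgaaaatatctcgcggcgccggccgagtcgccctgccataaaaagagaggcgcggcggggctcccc
Capitals mark matches to short motifs, which were searched on both strands. In Acod1 they mark the interferon regulatory factor core AANNGAAA, found 1 time, starting 63 bases before the RefSeq gene start, a motif that 21.3% of 32851 promoter windows of this length hold. In Gch1 they mark the GC box GGGCGG, found 2 times and held by 32.7% of the windows. The gamma-activated site TTCNNNGAA (7.02% of windows) and the interferon-stimulated element, GAAA followed by NN and GAAA (2.98%, a pattern that holds AANNGAAA) had no match in either window. GC made up 44.4% of the Acod1 window and 59.2% of the Gch1 window, against a median of 52.4% over all windows. A match describes the letters only.

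The libraries held 6465 to 11358 barcodes and 24991704 to 55053988 UMIs (unique molecular identifiers, 1 for each captured RNA molecule). After filters on depth, mitochondrial share and doublets, 35838 of 47319 barcodes remained, and 691 barcode sequences (1.97%) occurred in more than 1 library. A barcode entered a gate if it held at least 3 UMIs from at least 2 genes of a cell type's marker panel and at least 3 times as many as of any other panel. The monocyte panel was an exception, as its UMIs did not keep a barcode out of the macrophage gate. The gates held 4445 macrophage, 12395 endothelial, 10462 fibroblast, 193 neutrophil and 106 dendritic barcodes, and each marker of a panel was found in its own gate. Among kept barcodes, 5.81 and 1.05% were T or NK barcodes in the control group, and 1.68, 22.3 and 6.99% in disease replicates 3 to 5. The dendritic gate had 4 barcodes in control replicate 2 and 14 in disease replicate 3, so the groups were not compared there.

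Each enzyme had its own distribution over the gates, as the plot of levels by gate and library shows. A level is given in CPM, the gene's UMIs per 1000000 UMIs of the gate in that library. Gates were compared within libraries by edgeR's quasi-likelihood test for the 26 pairs of gates in which a gene had at least 10 UMIs in each gate. Of these, 18 passed an adjusted p of 0.05 (Benjamini-Hochberg over 12961 genes). Most genes differ between gates: 71.6% of all genes passed for macrophage against endothelial barcodes, 73.2% for macrophage against fibroblast, 68.3% for endothelial against fibroblast and 37.4% for macrophage against neutrophil. For the other pairs of gates the share was 46.1% (endothelial against neutrophil), 35.7% (macrophage against dendritic), 53.3% (endothelial against dendritic), 56.5% (fibroblast against dendritic), 48.7% (fibroblast against neutrophil) and 30.8% (neutrophil against dendritic).

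**Figure D1:**
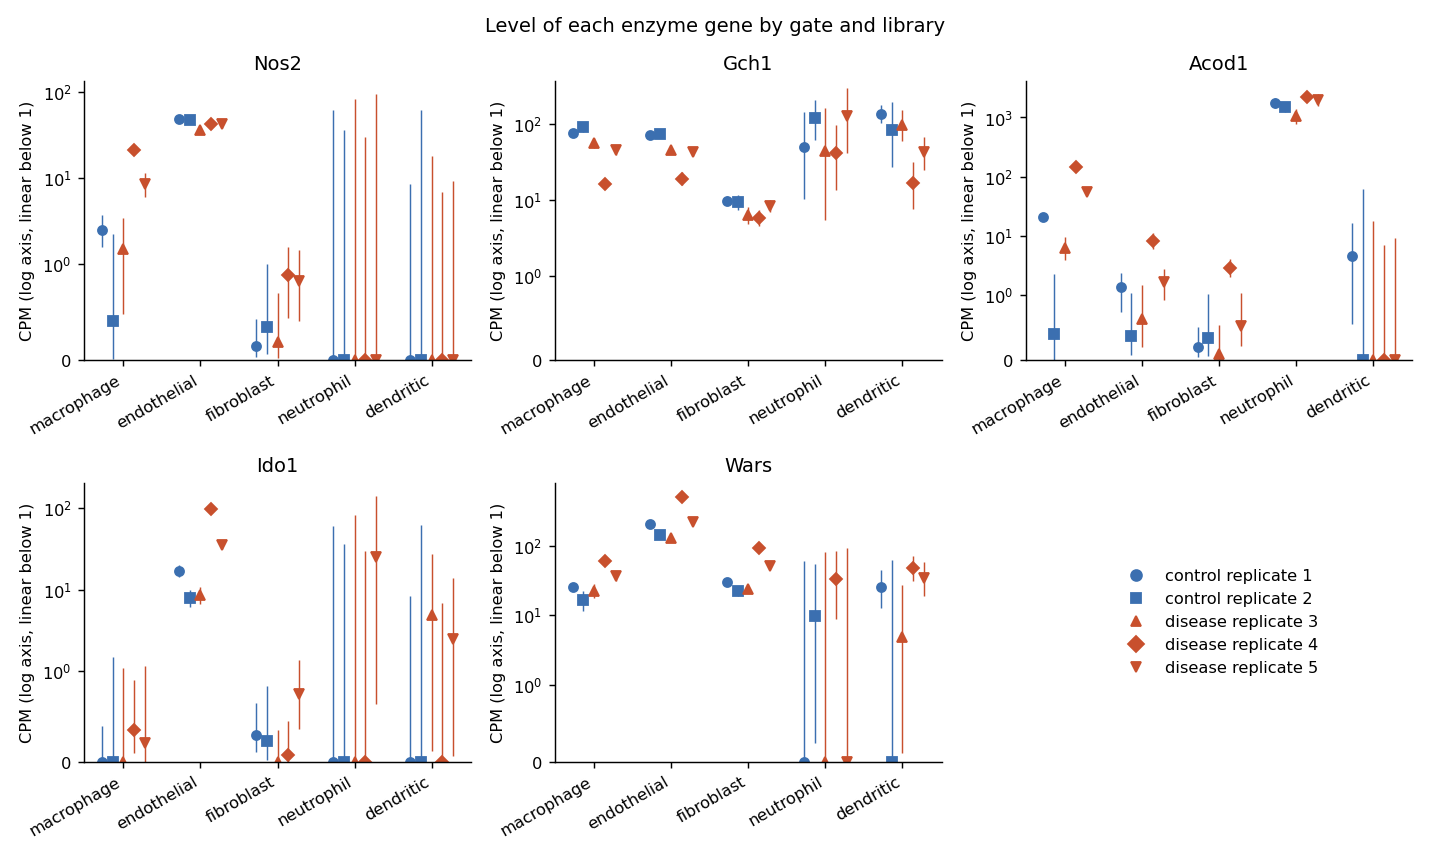
CPM of each gene (log axis, linear below 1) in 5 gates, with 1 point for each library (blue for the 2 control libraries, red for the 3 disease libraries) and exact 95% Poisson intervals for counting error only. Nos2 lies at 36.2 to 47.8 CPM in the endothelial gates but ranges from 0.408 to 21.1 CPM in the macrophage gates, and Acod1 is highest in the neutrophil gates, at 1039 to 2185 CPM.

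Nos2 was mainly an endothelial transcript in these hearts. Its endothelial level was 47.8 and 47.0 CPM in the controls and 36.2, 42.2 and 42.1 CPM in the disease libraries. The values were close together, with both controls above every disease library. Pooled over libraries, the endothelial gate held 77.4% of all Nos2 UMIs and the macrophage gate 13.6%. The difference of macrophage minus endothelial level was -2.23 ± 0.35 (SE, log2, n = 5 libraries, edgeR adjusted p = 4.94e-06), and that of endothelial minus fibroblast level was 6.47 ± 0.45 (edgeR adjusted p = 8.65e-12). Macrophage minus fibroblast, it was 4.24 ± 0.57 (edgeR adjusted p = 5.96e-07), so the order ran from endothelial to macrophage to fibroblast barcodes. The neutrophil and dendritic gates had no Nos2 UMI, which allows up to 8.12 and 1.83 CPM (3 counts over the gate). Among endothelial barcodes, those with capillary markers alone were 8753 of 12395 and held 78.0% of the Nos2 UMIs, at a pooled 49.0 CPM against 43.3 CPM over the whole gate. Barcodes with arterial markers had 6 UMIs and those with venous markers 9, too few to compare. Nos3, the constitutive endothelial nitric oxide synthase, was at 131 and 132 CPM in control and 113, 110.0 and 122 CPM in disease endothelial barcodes (edgeR adjusted p = 0.181).

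In macrophages Nos2 stood at 2.50 and 0.408 CPM in the controls, against 1.498, 21.1 and 8.46 CPM in the disease libraries. Disease replicates 4 and 5 were high, and disease replicate 3 lay between the controls. These levels came from few barcodes. In disease replicate 4, 237 UMIs lay in 70 of 1431 macrophage barcodes, and the 14 barcodes with at least 5 UMIs held 59.5% of them. In disease replicate 5, 1 barcode held 27 of 40 UMIs. A Nos2 UMI was found in 0.868 and 0.208% of control macrophage barcodes and in 0.713, 4.89 and 1.56% of those in disease. In T or NK barcodes, which should lack Nos2, it was at most 0.393%, at median depths of 3567 to 5080 UMIs against 5077 to 7111 UMIs in macrophages. After every barcode was thinned to 1000 UMIs, the macrophage shares were 0.324 and 0% in the controls and 0.371, 1.16 and 0.587% in disease (two-sided exact permutation p = 0.2, adjusted p = 0.833 over 25 tests). Thinned to 2000 UMIs, they were 0.356 and 0.261% in the controls and 0, 2.32 and 1.11% in disease, and the groups overlapped. Disease replicate 4 was the library in which macrophages held as large a part of the Nos2 UMIs as endothelial barcodes, 47.2 against 44.8%. In control replicate 2 these parts were 0.241 and 93.3%.

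Disease was compared with control in each gate by edgeR's quasi-likelihood test on UMIs summed over the gate, with 2 control and 3 disease libraries. None of the 5 genes passed an adjusted p of 0.05 in any gate. In macrophages 0 of 4 tested passed, against 6.66% of 11086 genes, and 2 had an unadjusted p under 0.05. In endothelial barcodes 0 of 5 passed, against 12.1% of 12390 genes, with 2 at an unadjusted p under 0.05. In fibroblasts 0 of 3 passed, against 12.9% of 13378 genes, with 1 at an unadjusted p under 0.05. In neutrophils Acod1 was tested and did not pass, against 2.63% of 914 genes, and its unadjusted p was not under 0.05. Over all kept barcodes 0 of 5 passed, against 6.51% of 16028 genes, with 1 at an unadjusted p under 0.05. DESeq2 called 0 of them in each of these 5 comparisons. Most genes called were lower in disease. Lower calls made up 6.52, 11.7, 12.5, 2.41 and 6.47% of genes in macrophages, endothelial barcodes, fibroblasts, neutrophils and all kept barcodes, and higher calls 0.135, 0.404, 0.396, 0.219 and 0.0374%. The macrophage result depended on the filter on low counts, since 4 of 5 members passed when every gene with at least 1 count was tested, 3 higher and 1 lower in disease. In that fit 1.08% of 18709 genes were called higher and 5.99% lower.

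**Figure D2:**
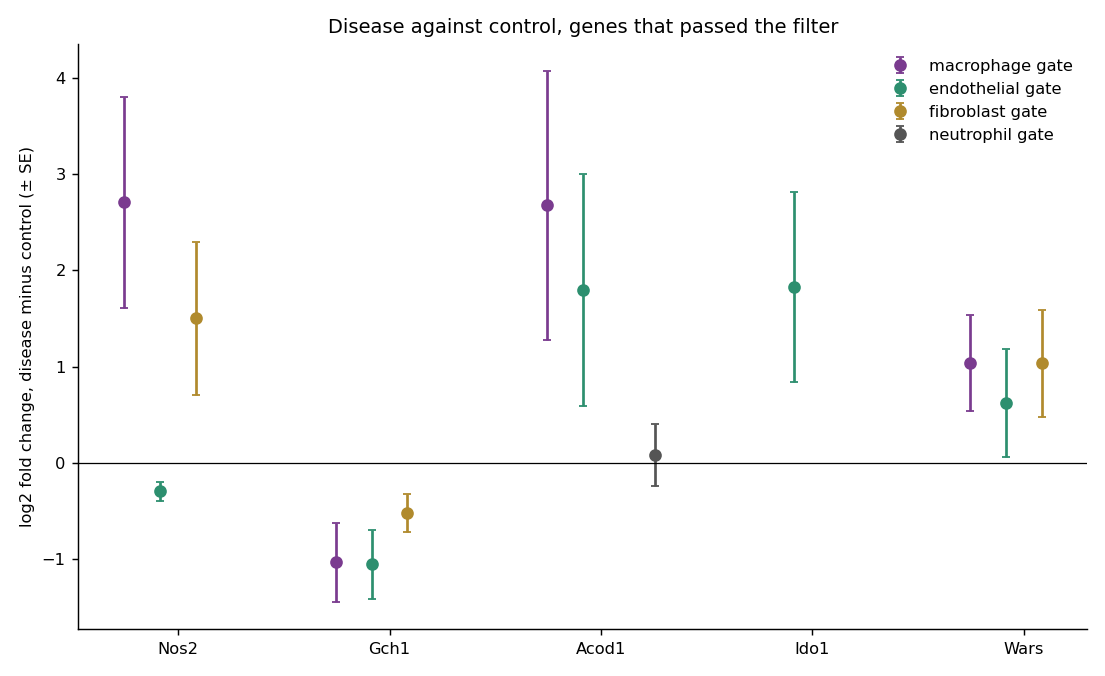
Log2 fold change of disease minus control with its standard error (edgeR, 2 control and 3 disease libraries) for each gene and gate that passed the filter on low counts. Gch1 lies below 0 in 3 gates, and Nos2 lies at 2.71 in macrophages and -0.30 in endothelial barcodes, and no point passed an adjusted p of 0.05.

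For Nos2 the log2 difference of disease minus control was 2.71 ± 1.09 (SE) in macrophages (edgeR adjusted p = 0.259) and -0.30 ± 0.10 in endothelial barcodes (edgeR adjusted p = 0.146). The macrophage value passed with every gene tested (edgeR adjusted p = 0.00192) and without disease replicate 3 (3.12, edgeR adjusted p = 0.0394). Over the fits that left out 1 library each it was 1.48 to 4.92 (edgeR adjusted p = 0.0394 to 0.767). In endothelial barcodes the groups did not overlap for Nos2 and Gch1, 2 of 5 tested members, against 47.4% of all genes. The macrophage effect minus the endothelial effect was 2.71 ± 0.62 (edgeR adjusted p = 0.131, while 0.108% of genes passed). Without disease replicate 3, the disease library lowest in macrophage Nos2, it was 3.11 (edgeR adjusted p = 5.39e-05). The share of all genes that passed in that fit is not given, and the range over single libraries left out is in the closing section. Such differences between gates were tested 13 times over the genes, of which 0 passed and 4 had an unadjusted p under 0.05 (edgeR). Of all genes, 0.185% passed for macrophage minus fibroblast, 0.0231% for endothelial minus fibroblast and 0% for endothelial or fibroblast minus neutrophil. In fibroblasts Nos2 stayed at 0.149 to 0.892 CPM.

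Other genes of arginine use gave 1 call. Ass1, which starts the rebuilding of arginine from citrulline, rose in fibroblasts from 24.4 and 25.7 CPM to 40.6, 36.2 and 42.1 CPM (0.62 ± 0.12, edgeR adjusted p = 0.0232). In macrophages Ass1 stood at 24.8 and 12.2 CPM in the controls, against 21.9, 179.5 and 89.7 CPM in disease (2.50 ± 0.90, edgeR adjusted p = 0.200). The spread in macrophages was far wider than in fibroblasts. Of the arginine and polyamine list, 0 of 10 tested genes passed in macrophages (edgeR, with 4 at an unadjusted p under 0.05), 0 of 9 in endothelial barcodes (with 0) and 1 of 9 in fibroblasts (with 4). Of all genes, 6.66, 12.1 and 12.9% were called in these gates, and 0.396% were called higher in fibroblasts. The list's median log2 difference was 0.14, -0.019 and 0.11 in these gates, against 0.017, 0.013 and -0.0091 over all genes tested.

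Gch1 was spread over leukocytes and endothelium, and its levels in 3 gates lay lower in the disease libraries without passing the test. Control macrophages had 75.7 and 89.7 CPM, and disease macrophages had 55.4, 16.3 and 44.4 CPM. Control endothelial barcodes had 70.0 and 72.5 CPM, and those in disease had 44.7, 19.0 and 42.1 CPM. Fibroblasts had 9.73 and 9.25 CPM in the controls and 6.28, 5.84 and 8.29 CPM in disease. In all 3 gates both controls lay above every disease library, and disease replicate 4 was lowest. Gch1 was the 1 of 4 tested members whose groups did not overlap in macrophages, against 38.3% of all genes, and in fibroblasts the 1 of 3 tested, against 48.6% of all genes. Over all kept barcodes it was again the 1 of 5 without overlap, against 38.1% of all genes. In sums over all barcodes, fewer cells of a type and less RNA per cell cannot be told apart. Disease replicate 4 was also lowest outside these gates, with 42.5 CPM in T or NK barcodes against 132 to 293 CPM in the other libraries, and 20.6 CPM in B cell barcodes against 66.0 to 149 CPM.

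The log2 difference of disease minus control for Gch1 was -1.03 ± 0.41 in macrophages (edgeR adjusted p = 0.254), -1.05 ± 0.36 in endothelial barcodes (edgeR adjusted p = 0.140) and -0.52 ± 0.20 in fibroblasts (edgeR adjusted p = 0.164). It passed in macrophages with every gene tested (edgeR adjusted p = 0.0207) and in endothelial barcodes without disease replicate 4 (-0.77, edgeR adjusted p = 0.00678). After thinning, a Gch1 UMI was in 7.44 and 10.3% of control macrophage barcodes and in 3.71, 1.66 and 4.41% of those in disease. The mean shares, 8.86% ± 2.01 (SD, n = 2) and 3.26% ± 1.42 (SD, n = 3), gave p = 0.1 in a two-sided exact permutation test, the smallest that 10 splits allow, and 0.625 adjusted over 25 tests.

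Gch1 is rich in GC, and the share of genes called lower varied with GC content. The first 300 nucleotides of Gch1 transcripts hold 72.7% GC, at percentile 96.8 of all genes, whose median is 53.7%. The other 4 enzymes lie between 50.5 and 55%. The genes tested in each gate were put into 10 equal parts by GC content. In macrophages 0.903% of the part lowest in GC were called lower in disease, and 15.4% of the part highest in GC. The median log2 difference in the highest part was -0.34, -0.43 and -0.49 in macrophages, endothelial barcodes and fibroblasts. With this trend removed, the Gch1 difference was -0.60, -0.52 and 0.073 in these gates, and the fibroblast value changed sign. The part of base composition in the Gch1 levels was not tested. The plot of fold change against base composition shows Gch1 beside these medians.

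**Figure D3:**
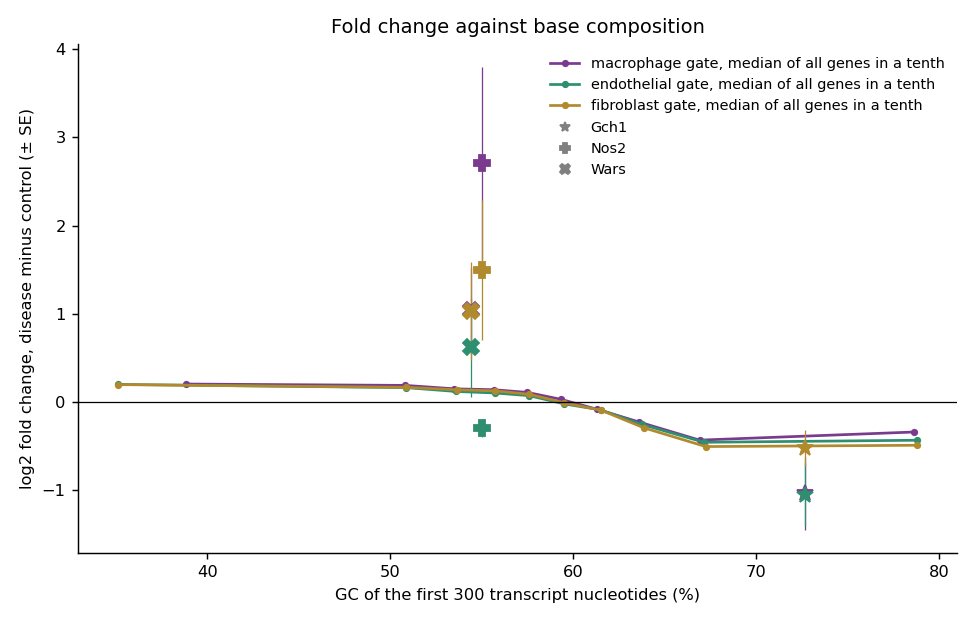
Log2 fold change of disease minus control against the GC content of the first 300 transcript nucleotides. Lines join the medians of 10 equal parts of all genes, ordered by GC, for 3 gates, and the symbols are Gch1, Nos2 and Wars with their standard errors. The medians go from 0.20, 0.20 and 0.20 in the lowest part to -0.34, -0.43 and -0.49 in the highest, and Gch1 stands at 72.7% GC.

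Spr and Qdpr, which also belong to the tetrahydrobiopterin pathway, were called lower. Spr, which completes tetrahydrobiopterin synthesis, fell in macrophages from 53.8 and 60.0 CPM to 8.99, 5.16 and 5.50 CPM (-3.05 ± 0.23, edgeR adjusted p = 0.00154). Qdpr, which recycles the cofactor, fell in macrophages from 55.8 and 52.6 CPM to 11.98, 8.89 and 18.8 CPM (-1.95 ± 0.30, edgeR adjusted p = 0.0133). Both also passed in endothelial barcodes (-3.05 and -2.14) and in fibroblasts (-3.42 and -1.85). They were the 2 genes of this list called in each gate, of 8, 9 and 10 tested, and 0 were called higher. Lower calls made up 6.52, 11.7 and 12.5% of all genes in these gates. The list's median log2 difference was -0.10, -0.36 and -0.059. The first 300 nucleotides hold 69.4% GC in Spr and 58.7% in Qdpr, and the part of base composition in these calls was not tested.

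Neighbouring gates in the order of Gch1 levels could not all be told apart. Macrophage minus fibroblast, the log2 difference was 2.97 ± 0.17 (edgeR adjusted p = 3.41e-16). Macrophage minus neutrophil, it was -0.18 ± 0.41 (edgeR adjusted p = 0.745), and macrophage minus dendritic -0.59 ± 0.25 (edgeR adjusted p = 0.0611), and neither passed. The first was smaller than its SE, and the second stayed below 0 whichever single library was left out. Macrophage minus endothelial, it was 0.54 ± 0.15 (edgeR adjusted p = 0.00213), but 0.12 with plain library totals in place of TMM scaling (edgeR adjusted p = 0.476). Dendritic barcodes had 135 and 83.3 CPM in the controls and 97.5, 16.7 and 42.1 CPM in disease, from 5 to 59 UMIs a library. Neutrophils had 49.4 and 118 CPM in the controls and 44.2, 41.1 and 127 CPM in disease, from 2 to 12 UMIs.

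Acod1 was highest in neutrophils, and macrophages of some libraries also carried it. Neutrophil barcodes had 1761 and 1489.5 CPM in the controls and 1039, 2185 and 1974 CPM in disease. The groups overlapped, 0 of 1 tested members without overlap against 30.5% of all genes. The log2 difference was 0.081 ± 0.32 (edgeR adjusted p = 0.973), from gates of 20 to 69 barcodes, and it was -0.20 without disease replicate 4. Between 62.5 and 88% of neutrophil barcodes had an Acod1 UMI. After thinning to 1000 UMIs, which left out 3, 10, 0, 9 and 2 shallower barcodes in replicates 1 to 5, the shares were 66.7 and 70% in the controls and 40, 60 and 45.5% in disease, lower in disease without overlap. Thinned to 2000 UMIs, with 6 to 22 barcodes left a library, they were 92.9 and 77.3% and 80, 72.7 and 50%, and the groups overlapped. At 1000 UMIs the difference of the means was -19.8 percentage points (two-sided exact permutation p = 0.2, adjusted p = 0.833, smallest possible p = 0.1). Macrophage minus neutrophil, the log2 difference in level was -5.47 ± 0.37 (edgeR adjusted p = 3.52e-13), and macrophage minus endothelial it was 4.61 ± 0.44 (edgeR adjusted p = 8.37e-11). Endothelial minus fibroblast, it was 1.43 ± 0.69 (edgeR adjusted p = 0.0653), and the dendritic gate had 2 Acod1 UMIs, too few to place in this order. In replicates 1 to 5 the macrophage gate held 56.5, 0.602, 22.6, 79.5 and 67.1% of a library's Acod1 UMIs, and the smaller neutrophil gate held 31.8, 91.6, 50.5, 12.9 and 20.4%. Neutrophils thus held the larger part in control replicate 2 and disease replicate 3, and macrophages in the other libraries.

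In macrophages Acod1 stood at 20.7 and 0.408 CPM in the controls, against 6.29, 146 and 54.4 CPM in disease. Disease replicates 4 and 5 were highest, and control replicate 1 exceeded disease replicate 3. The log2 difference was 2.67 ± 1.40 (edgeR adjusted p = 0.367), and it passed with every gene tested (edgeR adjusted p = 0.00735). It ranged over 1.31 to 7.60 when 1 library was left out at a time (edgeR adjusted p = 0.115 to 0.892). Macrophage barcodes with an Acod1 UMI numbered 366 of 1431 in disease replicate 4 and 70 of 704 in disease replicate 5, but 1 of 481 in control replicate 2. In disease replicate 4 the 115 barcodes with at least 5 UMIs held 67.8% of them. The thinned shares were 0.809 and 0.219% in the controls and 0.371, 7.45 and 3.38% in disease (exact permutation p = 0.3, adjusted p = 0.909). In T or NK barcodes the thinned shares were 0, 1.79, 0, 0.0502 and 0% in replicates 1 to 5, where control replicate 2 had 56 barcodes. The disease effect in macrophages minus that in neutrophils was 2.31 ± 0.60 (edgeR adjusted p = 0.423, while 0.0463% of genes passed). Without disease replicate 3, the disease library lowest in macrophage Acod1, it was 2.60 (edgeR adjusted p = 9.39e-04). The share of all genes that passed in that fit is not given, and the range over single libraries left out is in the closing section.

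Transcripts of neutrophils and of other myeloid cells were also counted in macrophage barcodes. S100a8 and S100a9, abundant transcripts of neutrophils, summed to 5.88 and 5.30 CPM in control macrophages and 225, 201 and 201 CPM in disease macrophages. Disease replicate 3, with the highest sum, had less Acod1 than control replicate 1, with a low sum, so the libraries did not rank alike. The neutrophil marker panel summed to 37.1 to 69.5 CPM over the macrophage gates, against 15591 to 23728 CPM over the neutrophil gates. In disease replicates 3, 4 and 5, S100a8, S100a9 and this panel together reached 1955, 601 and 876 CPM in macrophage barcodes with an Acod1 UMI and 228, 56.2 and 127 CPM in those without. In the controls the order was the other way, with 27.4 and 0 CPM in barcodes with Acod1, of which control replicate 2 had 1, and 59.8 and 42.7 CPM in those without. For Nos2 the barcodes with a UMI held less in disease replicates 4 and 5, with 109 and 14.9 CPM in barcodes with a Nos2 UMI and 283 and 271 CPM in those without. When each macrophage barcode with any of these neutrophil UMIs was left out, a step chosen after the values were seen, Acod1 stood at 19.9 and 0.502 CPM in the controls, against 3.55, 109 and 44.1 CPM in disease. The order of the libraries was as before. Nos2 then stood at 3.15 and 0.502 CPM in the controls, against 1.97, 14.1 and 3.31 CPM in disease, where disease replicate 5 came close to control replicate 1. The monocyte panel summed to 38.5 and 9.38 CPM in control macrophages and 132, 241 and 86.8 CPM in disease macrophages, without overlap of the groups. The macrophage gate did not exclude barcodes by this panel. The dendritic panel summed to 16.9 and 3.26 CPM in control macrophages and 16.2, 85.5 and 45.1 CPM in disease macrophages, and ranked the libraries as Acod1 and Nos2 did. No gene of these panels was at 0 over the macrophage gates. The part of neutrophil, monocyte or dendritic RNA in the macrophage levels was not tested.

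Most macrophage barcodes with Nos2 in disease replicates 4 and 5 also held Acod1. Barcodes with a UMI of Cxcl9, an interferon gamma-induced chemokine, or of Fcgr4, an Fc receptor of myeloid cells, made up 42.8 and 17.3% of control and 23.0, 71.6 and 41.3% of disease macrophage barcodes. In replicates 1 to 5 they held 96.3, 100, 47.6, 99.6 and 94.6% of the macrophage Acod1 UMIs and 51.7, 20.5, 34.1, 84.2 and 48.1% of the Gch1 UMIs. For Wars the shares were 66.2, 15, 25.3, 94.8 and 60.7%, and for Nos2 91.3, 0, 40, 100 and 87.5%, from 23, 1, 5, 237 and 40 Nos2 UMIs. They were also deeper, with medians of 6532 to 9186 UMIs against 3702 to 5296 UMIs in the rest. Acod1 was at 34.7, 1.73, 9.67, 169.8 and 90.6 CPM in them in replicates 1 to 5, and at 1.79, 0, 4.78, 3.70 and 6.85 CPM in the rest. It was higher in 5 of 5 libraries, by 2.95 ± 1.76 (SD) on the log2(CPM + 1) scale. A two-sided exact sign-flip permutation test over the libraries gave p = 0.0625, the smallest it allows, and 0.375 adjusted over 10 tests. An Acod1 UMI was in 59 of 70 macrophage barcodes with a Nos2 UMI in disease replicate 4 and in 7 of 11 in disease replicate 5. It was in 6 of 11 in control replicate 1, 0 of 1 in control replicate 2 and 0 of 4 in disease replicate 3. A Gch1 UMI was in 10 and 3 of those barcodes in disease replicates 4 and 5 and in 7 of those in control replicate 1. Barcodes with a Nos2 UMI were deeper, with medians of 13020.5 and 9065 UMIs in disease replicates 4 and 5 against 6865 and 5960 UMIs in those without, and the part of depth in this sharing was not tested. Barcodes with a UMI of Ccr2, the chemokine receptor of recruited monocytes, and no resident macrophage marker were compared with those that had resident markers and no Ccr2. Acod1 was higher in the Ccr2 barcodes in 4 of 5 libraries and lower in 0 (exact sign-flip permutation p = 0.125, adjusted p = 0.375). Nos2 was higher in 3 and lower in 2 (exact sign-flip permutation p = 0.75, adjusted p = 0.938). Barcodes with both or neither kind of marker entered no test. Pooled over libraries, the 864 with neither held 56.5% of the macrophage Nos2 UMIs. Their Nos2 level was 32.2 CPM, against 10.95 CPM in Ccr2 and 2.40 CPM in resident barcodes. For Acod1 they held 32.7%, at 129 CPM against 143 and 29.2 CPM. Of the 306 macrophage Nos2 UMIs, 237 came from disease replicate 4.

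**Figure D4:**
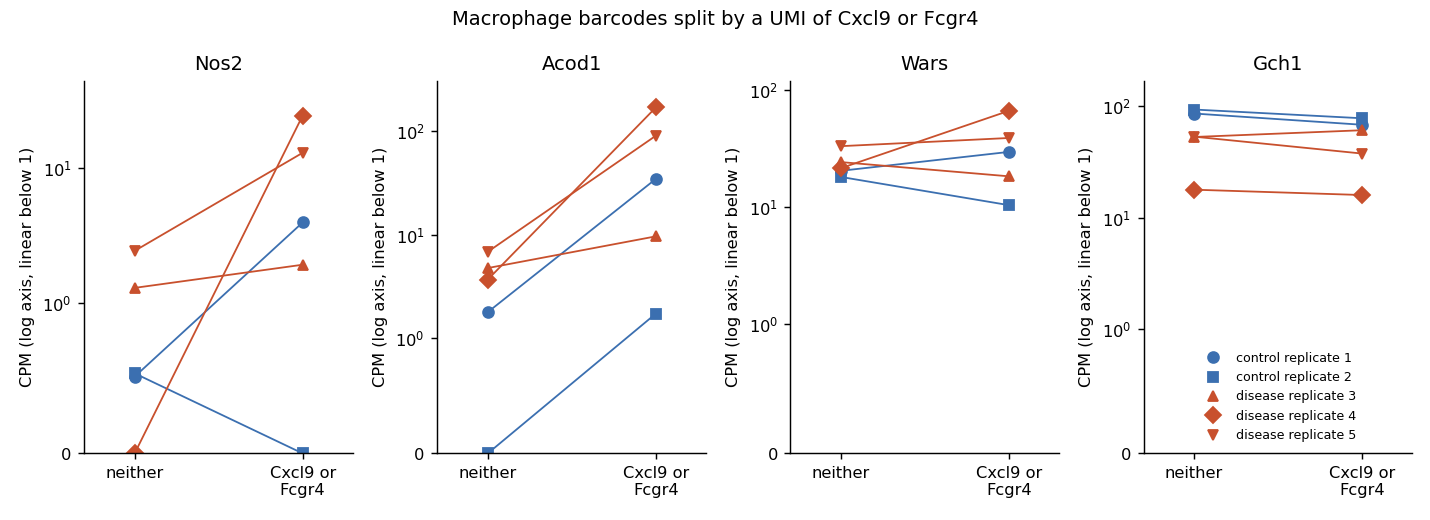
CPM (log axis, linear below 1) of 4 genes in macrophage barcodes with neither Cxcl9 nor Fcgr4 and in those with at least 1 UMI of either, with 1 line for each library. From left to right Acod1 is higher in 5 of 5 libraries, Nos2 in 4, Wars in 3 and Gch1 in 1.

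Among the citrate cycle genes around itaconate, 2 of 14 tested were called lower in macrophages and 0 higher. In endothelial barcodes 2 of 14 and in fibroblasts 3 of 14 were called lower, and lower calls made up 6.52, 11.7 and 12.5% of all genes in the 3 gates. Idh2, the mitochondrial isocitrate dehydrogenase, fell in macrophages from 96.1 and 132 CPM to 30.6, 13.9 and 20.7 CPM (-2.31 ± 0.28, edgeR adjusted p = 0.00528). Slc25a1, the mitochondrial citrate carrier, fell in macrophages from 29.0 and 23.2 CPM to 6.29, 6.84 and 8.04 CPM (-1.78 ± 0.24, edgeR adjusted p = 0.00834). The list's median log2 difference was 0.24 in macrophages, 0.017 in endothelial barcodes and 0.097 in fibroblasts. Over all genes tested it was 0.017, 0.013 and -0.0091. The first 300 nucleotides hold 65.5% GC in Idh2 and 62% in Slc25a1, and the part of base composition in these calls was not tested.

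Ido1 was mainly endothelial, and that gate held 87.2% of its UMIs. The endothelial level was 17.1 and 7.89 CPM in the controls and 8.59, 98.7 and 35.2 CPM in disease. Disease replicates 4 and 5 were highest, and disease replicate 3 lay between the controls. The log2 difference was 1.83 ± 0.99 (edgeR adjusted p = 0.308), and 0.74 to 2.49 with 1 library left out at a time (edgeR adjusted p = 0.0953 to 0.693). The T or NK panel summed to 25.7 and 1.09 CPM in control and 3.49, 86.3 and 12.8 CPM in disease endothelial barcodes, likewise highest in disease replicate 4, with none of its genes at 0, and its part in the Ido1 level was not tested. Endothelial barcodes with an Ido1 UMI made up 4.85 and 2.35% in the controls and 2.86, 10.6 and 6.25% in disease. After thinning the shares were 1.33 and 0.686% and 0.661, 5.47 and 2.90%, and in T or NK barcodes they were at most 0.0502%. Endothelial minus fibroblast, the log2 difference in level was 6.48 ± 0.29 (edgeR adjusted p = 1.11e-18). The macrophage gate had 5 Ido1 UMIs in 4445 barcodes and the dendritic gate 2 in 106, too few to describe a level at this depth. A dendritic gate relaxed after the values were seen held 2. Over all kept barcodes the difference was 1.36 ± 0.62 (edgeR adjusted p = 0.389), and without disease replicate 3 it was 1.73 (edgeR adjusted p = 0.0428).

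Genes further along tryptophan breakdown were scarce in macrophages. Kmo, Kynu and Haao, which process kynurenine, were at 0.408 to 18.4 CPM in macrophages, where 0 of 9 tested genes of the tryptophan list passed (edgeR, with 2 at an unadjusted p under 0.05). In endothelial barcodes 1 of 6 passed as lower, while 11.7% of all genes did. This was Eif2ak4, the kinase that senses uncharged tRNA, which fell from 14.3 and 15.2 CPM to 8.97, 10.5 and 8.83 CPM (-0.71 ± 0.14, edgeR adjusted p = 0.0250). Its first 300 nucleotides hold 54.8% GC, and the part of base composition in this call was not tested.

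Wars was found in every large gate and was highest in endothelial barcodes. The endothelial level was 208 and 143 CPM in the controls and 128, 499 and 219 CPM in disease. Fibroblasts had 30.5 and 22.1 CPM in the controls and 24.1, 92.7 and 51.0 CPM in disease. Macrophages had 25.8 and 16.3 CPM in the controls and 22.5, 60.3 and 36.6 CPM in disease. In each gate disease replicate 4 was highest and disease replicate 5 next, while disease replicate 3 lay between the controls or below them. The log2 difference was 0.62 ± 0.56 in endothelial barcodes (edgeR adjusted p = 0.529), 1.03 ± 0.56 in fibroblasts (edgeR adjusted p = 0.288) and 1.04 ± 0.50 in macrophages (edgeR adjusted p = 0.333). The fibroblast value was 0.46 to 1.38 when single libraries were left out (edgeR adjusted p = 0.0690 to 0.694). The macrophage value passed with every gene tested (edgeR adjusted p = 0.0472), and with 1 library left out at a time it was 0.46 to 1.53 (edgeR adjusted p = 0.0898 to 0.897). Markers of other cell types varied with the fibroblast level. The monocyte panel summed to 22.3 and 7.87 CPM in control fibroblasts and 4.83, 193 and 70.4 CPM in disease fibroblasts, highest in disease replicate 4. The T or NK panel stood at 15.3 and 1.504 CPM in the controls, against 1.64, 62.4 and 14.3 CPM in disease, again highest in disease replicate 4. No gene of either panel was at 0 over the fibroblast gates, and their part in the Wars level was not tested. Without disease replicate 4 the endothelial value was -0.072 (edgeR adjusted p = 0.904). In T or NK barcodes Wars was at 20.3 to 30.3 CPM in the 5 libraries.

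Macrophage minus endothelial, the log2 difference in the Wars level was -2.44 ± 0.13 (edgeR adjusted p = 8.86e-17). Endothelial minus fibroblast, it was 2.35 ± 0.12 (edgeR adjusted p = 5.25e-17). Macrophage minus fibroblast, it was -0.089 ± 0.13 (edgeR adjusted p = 0.551), within the spread, though -0.39 with plain library totals (edgeR adjusted p = 0.00806). Dendritic barcodes had 25.2 and 0 CPM in the controls and 4.88, 48.4 and 34.7 CPM in disease, from at most 26 UMIs a library.

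Set against its own family, Wars gave nearly the same order of libraries. Of the UMIs of the 20 cytosolic aminoacyl-tRNA synthetase genes in endothelial barcodes, Wars held 22.8% (21.9 to 23.7) and 16.96% (16.1 to 17.9) in the controls, with 95% Wilson intervals for counting error only. In disease it held 15.1% (14.2 to 15.9), 38.4% (37.2 to 39.5) and 22.1% (21.3 to 23.0). The mean share was 19.9% ± 4.14 (SD, n = 2) in control and 25.2% ± 11.9 (SD, n = 3) in disease, with a two-sided exact permutation p of 0.9. In control macrophages the share was 3.95 and 2.50%, against 3.35, 8.17 and 5.14% in disease (exact permutation p = 0.4). Wars made up 3.59 and 2.73% in control fibroblasts and 2.89, 8.92 and 5.49% in disease (exact permutation p = 0.3). The smallest p possible was 0.1, and adjusted values over the 5 gates were at least 0.667. Together the other 19 synthetases stood at 628 to 678 CPM in macrophages, 699.7 to 802 CPM in endothelial barcodes and 787 to 946 CPM in fibroblasts, and their median log2 difference was 0.20, 0.16 and 0.22. Of them, 2, 2 and 3 were called lower in these gates and 0 higher, while 6.52, 11.7 and 12.5% of all genes were called lower there. Gars, the glycine enzyme, was among the lower ones in each gate (-1.14, -1.49 and -1.65). Its first 300 nucleotides hold 68.7% GC, and the part of base composition in this call was not tested.

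**Figure D5:**
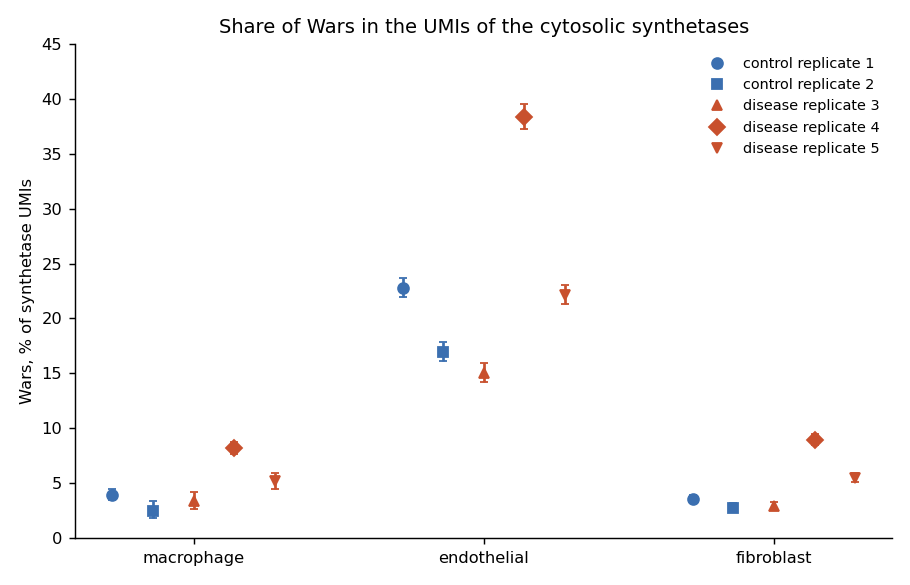
Wars as a percentage of the UMIs of 20 cytosolic aminoacyl-tRNA synthetase genes in 3 gates, with 1 point for each library and its 95% Wilson interval (counting error only). Disease replicate 4 is highest in each gate, at 8.17, 38.4 and 8.92%, and disease replicate 3 lies between or below the 2 controls.

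Several of these genes ranked the libraries alike. From high to low, the order disease replicate 4, disease replicate 5, control replicate 1, disease replicate 3, control replicate 2 held for Nos2, Acod1 and Wars in macrophages, for Acod1 and Ido1 in endothelial barcodes and for Wars in fibroblasts. Of all genes tested, 3.47% had this order in macrophages, 2.63% in endothelial barcodes and 2.29% in fibroblasts. The order was noticed in these data, so the shares are a description. Ifng, which encodes interferon gamma, had this order over all kept barcodes, at 107, 31.9, 28.4, 6.43 and 1.12 CPM, and so did the share of T or NK barcodes. Cxcl9 in macrophages had it as well, at 2287, 871, 352, 149 and 10.6 CPM. Irf1, an interferon-induced transcription factor, did not, at 324, 394, 396, 393 and 500.05 CPM in the same order of libraries. Within T or NK barcodes Ifng stood at 354 and 36.4 CPM in the controls, against 322, 421 and 346 CPM in disease, where control replicate 2, with 56 such barcodes, was low. No correlation was computed over 5 libraries, and the part of interferon gamma or of T cell number in the enzymes' levels was not tested. Gch1 did not have this order in any of the 5 gates. The order of Acod1 in endothelial barcodes rests on 13, 3, 5, 44 and 15 UMIs in replicates 1 to 5. The macrophage panel summed to 265, 94.3, 138, 333 and 174 CPM in these endothelial barcodes. It was likewise highest in replicate 4 and lowest in replicate 2, and its part in the Acod1 level was not tested.

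Of the list of interferon drivers and reporters, 1 gene was called in each of the macrophage, endothelial and fibroblast gates, of 11, 12 and 12 tested, while 6.52, 11.7 and 12.5% of all genes were called lower. This was Ifngr2, a chain of the interferon gamma receptor, which fell in macrophages from 115 and 101 CPM to 26.1, 28.1 and 23.7 CPM (-1.94 ± 0.21, edgeR adjusted p = 0.00366). Its first 300 nucleotides hold 65.3% GC, and the part of base composition in this call was not tested. The list's median log2 difference was 1.29, 0.59 and 1.28 in these gates, against 0.017, 0.013 and -0.0091 over all genes tested.

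The genes most like each enzyme were taken by Pearson's r of log2(CPM + 1) over the 25 sums of gate and library, among 10195 genes. The sums share libraries and gates, so r only describes which of them carry a gene. For Acod1 they were Cd300lf (0.97), Fpr2 (0.97) and Gm49368 (0.96). For Nos2 they were Sez6l2 (0.91), Scarf1 (0.91) and Car7 (0.91), for Ido1 D830026I12Rik (0.91), Palmd (0.90) and Gimap8 (0.88) and for Wars Fbxl12 (0.94), Mgst3 (0.93) and Rad17 (0.93). Gch1 was nearest to Capzb (0.86), Nrros (0.84) and Tln1 (0.84).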

How the data were processed

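The deposited files hold raw UMI counts per gene and barcode from 10x 5-prime libraries of 5 samples, and per the file headers they come from Cell Ranger 3.1.0. The submitters' processing notes also name Seurat 3, and the rule for calling cells is not given in the sources used here. The members, gene lists, panels and tests were chosen with earlier results of these data known. Of the 6 genes chosen, 5 are described. The other, and 1 gene of the interferon list, are not reported here and enter no count over members or lists.

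Barcodes with at least 500 UMIs, 200 genes and at most 10% mitochondrial UMIs were kept. Scrublet (scanpy 1.11.5) scored doublets, and the expected number with the highest scores (0.8% per 1000 barcodes) was removed, 2474 in all (6.46%), since its automatic threshold marked 0.0716% in control replicate 2. For each gate and library UMIs were summed and fitted in edgeR 4.0.16, run under R 4.3.3 (settings: TMM, filterByExpr, quasi-likelihood F test, Benjamini-Hochberg over all genes), for disease against control in gates with at least 20 barcodes in every library and for pairs of gates in all 5 gates, the dendritic one with 4 and 14 barcodes in replicates 2 and 3 included. Standard errors were taken as |log2 fold change| divided by the root of the F statistic. DESeq2 1.42.0 was an alternative, and the fit was tested on simulated counts. CPM uses plain gate totals, while overlap of groups was judged on TMM-scaled CPM. Exact tests used SciPy 1.17.1. All members and any list gene could be named, and for each member the 3 most alike genes of at least 5 CPM. GC content had a value for 97.6% of genes. Gates held from 39504 UMIs (a neutrophil gate) to 20151751 (a fibroblast gate), which sets the precision of a level. Alternatives are in the closing section.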

Additional observations from a re-analysis of the deposited data

How the results depend on the processing

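Across the alternatives run, 213 of the disease effects recomputed for single genes kept their direction and their side of the threshold, 7 passed where the reported fit did not and 7 changed sign. The number of genes called in macrophages (738) was 1323 with every gene tested (7.07%) and 491 with the GC trend removed, and 214 to 1012 without single libraries (251 without control replicate 1, 269 without control replicate 2 and 214 without disease replicate 5). In neutrophils (24) it was 15 with DESeq2, 40 with every gene tested and 7 to 45 without single libraries. Over all kept barcodes (1043) it was 1720 with DESeq2, 615 with the GC trend removed and 125 to 1232 without single libraries. Without single libraries it was 783 to 1496 in endothelial barcodes (all: 1501) and 790 to 1824 in fibroblasts (all: 1731), lowest without control replicate 2. The number of members called in macrophages was 4 of 5 with every gene tested and 0 to 1 of 4 without single libraries. It was 0 to 1 in endothelial barcodes and 0 to 1 over all kept barcodes. The single calls came without disease replicate 3 (macrophage Nos2, with 8.78% of all genes called), without disease replicate 4 (endothelial Gch1, 12.2%) and without disease replicate 3 (Ido1 over all barcodes, 5.5%). The GC trend removed gave 0.073 for Gch1 in fibroblasts and -0.055 for Acod1 in neutrophils. Without single libraries the disease effect was -0.072 to 0.95 for endothelial Wars, -0.20 to 0.29 for neutrophil Acod1 and -0.45 to 0.094 for Nos2 over all barcodes. With plain library totals the differences in level were 0.12 (Gch1, macrophage minus endothelial), -0.39 (Wars, macrophage minus fibroblast), 0.74 (Wars, fibroblast minus dendritic) and 0.033 (Gch1, neutrophil minus dendritic). Without single libraries, differences in the Gch1 level were -0.47 to 0.011 (macrophage minus neutrophil), -0.73 to -0.38 (macrophage minus dendritic) and -0.67 to 0.088 (neutrophil minus dendritic), and in the Acod1 level 1.27 to 1.70 (endothelial minus fibroblast). Differences in the disease effect were then 1.65 to 4.98 (Nos2, macrophage minus endothelial), 1.33 to 6.84 (Acod1, macrophage minus neutrophil), -0.24 to 0.079 (Wars, macrophage minus fibroblast), -1.04 to -0.38 (Gch1, macrophage minus fibroblast) and -0.99 to 0.39 (Gch1, fibroblast minus neutrophil). The share of barcodes with a UMI, disease minus control in percentage points, was -2.01 to 6.58 (endothelial Wars) and -0.0346 to 1.98 (fibroblast Wars) without single libraries, and the share of Wars in its family in endothelial barcodes was -1.28 to 10.4. Thinned to 2000 UMIs, the difference in the share of barcodes with a UMI was -1.77 (endothelial Nos2, -1.06 at 1000), -7.40 (macrophage Gch1, -5.60 at 1000), -6.72 (endothelial Gch1, -2.69 at 1000) and -1.01 (fibroblast Gch1, -0.632 at 1000). These moved by more than the pooled SD between libraries at 1000 UMIs, and smaller moves are not listed. The causes were not tested. Scrublet's automatic threshold, the relaxed dendritic gate and the removal of barcodes with neutrophil UMIs were added after the data were seen. No paired analysis was possible because the replicate numbers run from 1 to 5 and are not shared between the groups. Disease was not compared with control in the dendritic gate, because 2 libraries had fewer than 20 barcodes, and the stricter gate has no meaning over all kept barcodes. The neutrophil and dendritic gates held few barcodes, which limits their levels, and thinned shares come from a single random draw of UMIs and move with the draw where few barcodes are positive.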
